A study of Mus musculus with 18 samples.

Results

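The genes described here are 45 members of the Wnt signalling system: 19 Wnt ligands, all 10 Frizzled receptors (Fzd1 to Fzd10), 9 secreted antagonists (Sfrp1, Sfrp2, Sfrp4, Sfrp5, Frzb, Dkk1, Dkk2, Dkk3 and Wif1), the 4 R-spondins, and Axin2, Lef1 and Tcf7. They were chosen by name rather than by a measured value, though with earlier results of these data known, out of 20665 autosomal protein-coding genes. The study profiled H3K27me3, the histone mark placed by the Polycomb enzyme EZH2, by bulk CUT&Tag in the mouse medial ganglionic eminence (MGE), an embryonic brain region that produces cortical and striatal interneurons. CUT&Tag directs a transposase to an antibody-bound mark, so that the DNA beside the mark is cut, tagged and sequenced. Libraries were made from E12.5 and E15.5 embryos, WT or Ezh2 KO, with 3 libraries in each of the 4 groups, and the 6 heterozygous samples were not analysed here. KO embryos are labelled Nkx2.1-CreC/+;Ezh2;Ai9F/+, in which Cre made under Nkx2.1 control deletes a floxed Ezh2 and switches on the Ai9 tdTomato reporter. Fathers were Nkx2.1-CreC/C;Ezh2F/+ and mothers Ai9F/F;Ezh2F/+, so by this cross every embryo, WT included, inherits Nkx2.1-CreC/+ and Ai9F/+. The E12.5 samples were whole MGEs, whereas at E15.5 tissue was taken under fluorescence so that only the tdTomato-positive MGE was collected. Same-genotype embryos could be pooled. No sorting of nuclei is named in the protocol, so nuclei in which Cre had not acted may be present, and in such bulk libraries a mark lost from some cells and a mark lowered in every cell cannot be told apart.

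Wnt ligands are secreted lipid-modified proteins that bind Frizzled receptors together with LRP co-receptors and, in the canonical branch, stabilise beta-catenin, which then works with LEF and TCF transcription factors. Secreted Frizzled-related proteins (the Sfrp family and Frzb) and Wif1 bind the ligands, Dickkopf proteins block the co-receptors, R-spondins amplify the signal by keeping Frizzleds at the cell surface, and Axin2 is a direct target that feeds back to degrade beta-catenin. In the embryonic forebrain, canonical ligands are made chiefly at the dorsal midline, and Wnt signalling favours dorsal over ventral fates. H3K27me3 commonly lies in broad domains over silent developmental genes, many of which have CpG-rich promoters.

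Promoters are shown first for 6 members whose counts changed in a test below, those with the smallest adjusted p that had a matched promoter. In all but Axin2 the start site itself lay under the mark throughout. Each sequence runs 5′ to 3′ along the gene's strand from 250 bases before to 50 bases after a RefSeq start site in GRCm38.p6, and capitals mark each CpG.
Fzd7 (chr1:59481897-59482196, plus strand): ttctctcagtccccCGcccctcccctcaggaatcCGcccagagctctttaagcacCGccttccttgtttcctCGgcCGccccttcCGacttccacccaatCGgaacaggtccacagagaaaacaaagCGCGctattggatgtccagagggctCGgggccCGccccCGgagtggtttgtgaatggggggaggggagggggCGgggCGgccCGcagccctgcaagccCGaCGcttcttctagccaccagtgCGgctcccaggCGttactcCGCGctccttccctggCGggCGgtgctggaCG
Wnt8b (chr19:44493222-44493521, plus strand): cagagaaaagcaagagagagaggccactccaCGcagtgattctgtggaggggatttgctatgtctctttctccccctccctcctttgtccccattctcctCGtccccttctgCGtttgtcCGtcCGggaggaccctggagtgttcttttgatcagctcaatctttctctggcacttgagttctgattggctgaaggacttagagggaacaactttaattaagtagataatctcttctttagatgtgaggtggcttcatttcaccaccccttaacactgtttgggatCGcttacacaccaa
Lef1 (chr3:131110047-131110346, plus strand): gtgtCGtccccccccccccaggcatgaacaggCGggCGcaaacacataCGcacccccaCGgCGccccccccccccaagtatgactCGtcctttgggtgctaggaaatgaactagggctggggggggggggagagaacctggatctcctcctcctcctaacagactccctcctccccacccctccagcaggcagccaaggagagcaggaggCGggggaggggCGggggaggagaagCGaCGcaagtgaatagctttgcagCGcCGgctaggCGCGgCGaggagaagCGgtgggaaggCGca
Axin2 (chr11:108920099-108920398, plus strand): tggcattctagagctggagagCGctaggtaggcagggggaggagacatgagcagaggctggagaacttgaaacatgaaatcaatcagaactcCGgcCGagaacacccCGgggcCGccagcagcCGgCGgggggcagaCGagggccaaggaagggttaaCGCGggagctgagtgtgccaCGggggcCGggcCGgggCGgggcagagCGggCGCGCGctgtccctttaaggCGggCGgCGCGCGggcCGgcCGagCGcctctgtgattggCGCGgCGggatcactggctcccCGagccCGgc
Wnt6 (chr1:74771642-74771941, plus strand): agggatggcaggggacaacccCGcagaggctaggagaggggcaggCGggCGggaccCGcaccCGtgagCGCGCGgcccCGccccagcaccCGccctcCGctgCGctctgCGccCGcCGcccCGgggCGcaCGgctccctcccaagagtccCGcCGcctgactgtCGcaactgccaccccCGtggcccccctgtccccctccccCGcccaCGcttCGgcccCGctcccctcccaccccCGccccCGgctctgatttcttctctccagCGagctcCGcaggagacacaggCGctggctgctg
Wnt2 (chr6:18030396-18030695, minus strand): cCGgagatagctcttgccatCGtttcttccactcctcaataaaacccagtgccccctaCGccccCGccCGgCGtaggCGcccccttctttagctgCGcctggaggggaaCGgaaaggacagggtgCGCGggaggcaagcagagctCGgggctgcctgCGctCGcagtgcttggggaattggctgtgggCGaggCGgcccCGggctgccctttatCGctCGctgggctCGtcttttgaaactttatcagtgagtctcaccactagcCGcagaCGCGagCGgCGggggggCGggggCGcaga
These promoters held from 6 CpGs in Wnt8b to 31 in Axin2 and in Wnt6. The start site lay inside an interval of the mark in all 12 libraries for Fzd7, Wnt8b, Lef1, Wnt6 and Wnt2. Axin2 had its start covered in 3 libraries, E12.5 WT replicates 2 and 3 and E15.5 WT replicate 3. RefSeq promoters were matched for 32 of the 45 members, with 39 start sites among them. A start site was covered in all 12 libraries at 29 of these 39 promoters (74.4%), against 6.98% of 20085 promoters of all genes. By role this was 14 of 18 ligand promoters, 3 of 6 receptor promoters, 5 of 6 antagonist promoters, both R-spondin promoters and 5 of 7 promoters of Axin2, Lef1 and Tcf7. The median promoter held 25 CpGs among members and 14 among all genes, and the median among all promoters covered in 12 libraries was 20. The TCF/LEF core CTTTGAT, searched on both strands (ATCAAAG on the other), was found in 2 of the 39 promoters (5.13%), those of Wnt11 and of a downstream start of Wnt5b, and in 3.26% of all promoters. None of the 6 promoters shown holds it.

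Each library has its own list of called intervals with a whole-number count for each. The count in intervals ranged from 573838 to 6846250 per library. Depth, taken as the mean count per 200 bp window recovered from the interval scores, was lowest in E15.5 WT replicate 1 (0.0751) and highest in E12.5 WT replicate 2 (0.698). Counts were scaled to the mean depth and are called normalised counts below. WT libraries included the deepest 2 at E12.5 and the shallowest 3 at E15.5 of their stage. The deletion was not checked here, since the profile of a histone mark does not read the Ezh2 transcript. Since a repressive mark does not show expression, cell type markers could be checked only for presence of the mark: intervals in all 12 libraries lay over 9 of 10 MGE and ventral telencephalon genes, 7 of 8 dorsal pallium genes, 2 of 4 endothelial, 2 of 4 mesenchymal and 0 of 4 microglial genes, and 0 of 9 housekeeping genes. The mark over ventral genes does not identify the tissue. The labels number the biological replicates without saying how many embryos each holds, so p-values measure the spread between these libraries.

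An interval overlapped the gene body or the 2500 bp on either side in all 12 libraries for 35 of the 45 members (77.8%), against 12.1% of all genes (2492 of 20665). By role this held for 17 of 19 ligands, 6 of 10 receptors, 5 of 9 antagonists, all 4 R-spondins and all 3 of Axin2, Lef1 and Tcf7. Fzd3 and Fzd8 had no interval in any library. The number of marked members ran from 36 in the shallowest library, E15.5 WT replicate 1, to 43 in the deepest, E12.5 WT replicate 2, and from 36 to 42 when every list was held to its 4575 strongest autosomal intervals. Intervals covered a median of 29.5% ± 7.74 (SD, n = 12 libraries) of a member's window. Per kilobase of interval, the median normalised count of members marked in all libraries was 47.5, against 28.2 for all such genes. It was 61.7 for ligands, 21.6 for receptors, 37.0 for antagonists, 27.9 for R-spondins and 21.5 for Axin2, Lef1 and Tcf7. Intervals were also longer at ligands, with a median span of 19.3 kb against 8.2 kb for all genes. That median is the value of Wnt9a, whose interval was fused with that of Wnt3a in some libraries. Ligands that share a domain are each counted in it. These differences between roles are descriptions and were not tested.

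**Figure D1:**
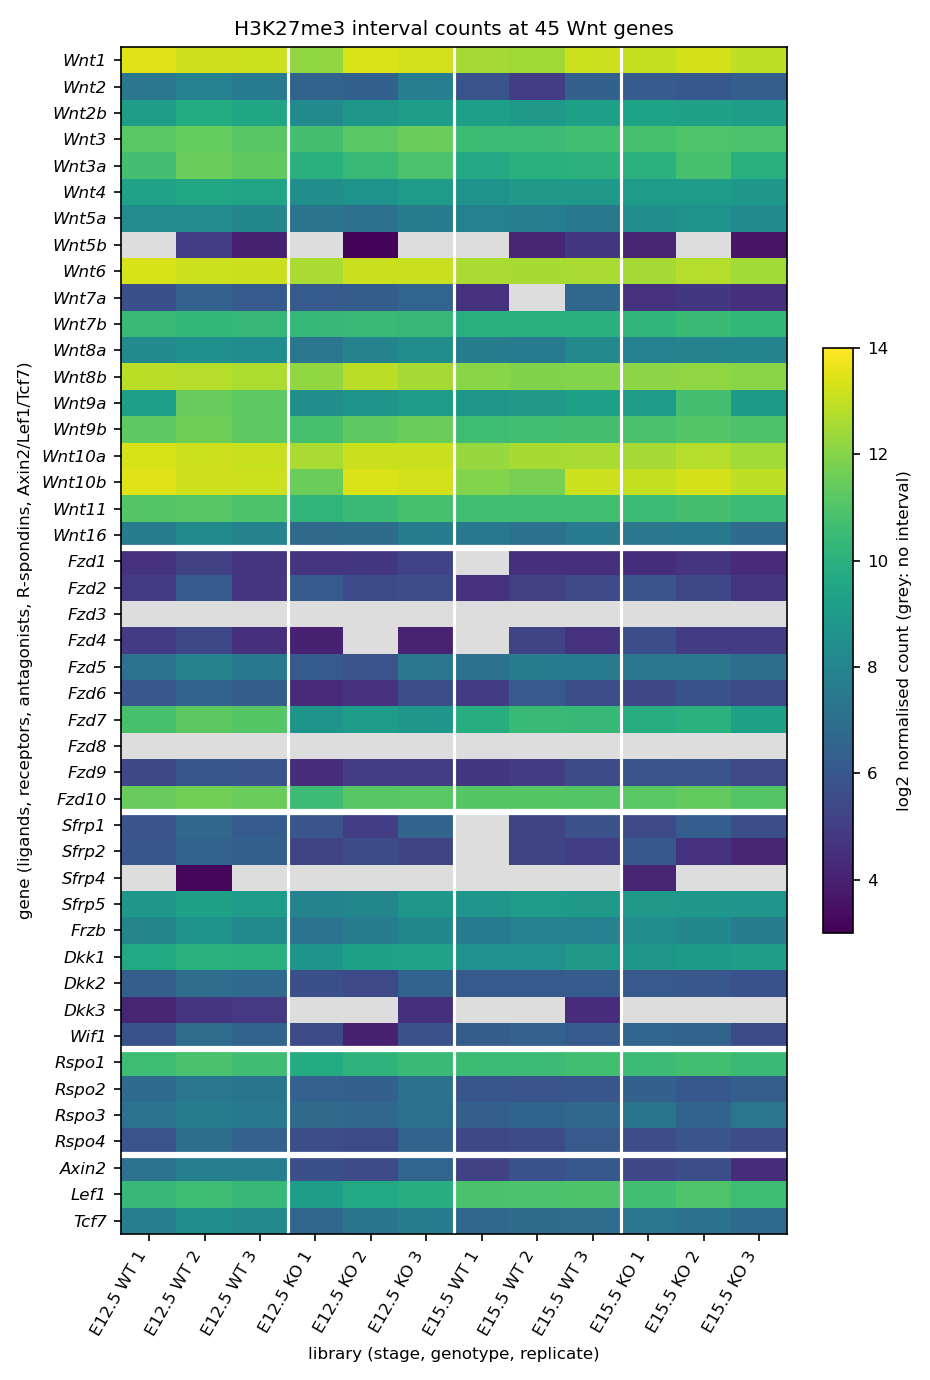
Normalised H3K27me3 count on a log2 colour scale for the 45 genes (rows, by role) in the 12 libraries (columns, by stage and genotype), with grey for no interval. Wnt1, Wnt10b, Wnt10a, Wnt6 and Wnt8b are the brightest rows and Fzd3 and Fzd8 are grey throughout.

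Among the ligands, the densest mark lay on 2 gene pairs and on Wnt8b. Wnt1 and Wnt10b, neighbours that encode a midbrain organiser ligand and a canonical ligand, lay in 1 domain at chr15:98753001-98816800, which also holds Arf3, Ddn and Prkag1, so their counts are not independent. Wnt1 had the largest mean of any member, with normalised counts of 11187, 9350.2 and 9139 in E12.5 WT, 4711, 10881 and 9833 in E12.5 KO, 5801, 5491 and 9141 in E15.5 WT, and 8195, 10131 and 7830.4 in E15.5 KO. In the 3 low libraries, E12.5 KO replicate 1 and E15.5 WT replicates 1 and 2, the domain was called in pieces and much of its count lay outside the Wnt1 interval. With the counts of all pieces in the domain summed, these 3 libraries had 7708, 9831 and 8961. Small separate pieces occurred in other libraries too, as in E12.5 KO replicate 2 (10978 when summed). No difference at Wnt1 passed in the main fits, and the change between stages passed in 1 of 21 alternative settings. Per kilobase, the normalised count was 197 at Wnt1, 194 at Wnt10b, 157 at Wnt10a, 148 at its neighbour Wnt6 and 116 at Wnt8b. The pairs Wnt6 and Wnt10a, Wnt3 and Wnt9b, and Wnt3a and Wnt9a each share a domain in at least 1 library as well. The other ligands marked in all libraries had 25.3 (Wnt8a) to 93.4 (Wnt11) per kilobase.

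Only Wnt5b and Wnt7a, of the ligands, lacked an interval in some library. Wnt7a, a ligand of the developing cortex and of brain vessels, had normalised counts of 51.0, 88.2 and 69.7 in E12.5 WT and 69.8, 76.3 and 96.2 in E12.5 KO. At E15.5 it had 24.2, 0 and 102 in WT and 24.7, 27.7 and 22.6 in KO, so that 1 WT library was high and 1 had no interval. Wnt5b was marked in 7 libraries, at 31.6 and 16.2 in E12.5 WT replicates 2 and 3, 8.59 in E12.5 KO replicate 2, 18.1 and 27.7 in E15.5 WT replicates 2 and 3, and 17.5 and 12 in E15.5 KO replicates 1 and 3. A missing interval at this depth does not show that the mark was absent.

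Among the receptors, Fzd10 and Fzd7 had broad domains that covered the whole window in the median library, with 93.5 and 47.5 normalised counts per kilobase, while Fzd2, Fzd5, Fzd6 and Fzd9 had from 12 (Fzd2) to 25.8 (Fzd5). Fzd10 had the largest mean normalised count of the receptors, at 2789.6, 3262 and 2878 in E12.5 WT, 1477, 2234 and 2323 in E12.5 KO, 2217, 2166 and 2108 in E15.5 WT and 2349, 2660.1 and 2123 in E15.5 KO. Its 3 E12.5 KO libraries lay below the 3 E12.5 WT libraries, but the change did not pass the test (log2 -0.57 ± 0.28, SE; edgeR adjusted p = 0.182). Fzd1 had an interval in 11 libraries, at 24.4, 34.6 and 24.9 in E12.5 WT, 25.7, 27.7 and 37.4 in E12.5 KO, 0, 22.1 and 22.5 in E15.5 WT and 21.8, 25.3 and 19.6 in E15.5 KO. The single gap was in the shallowest library. Fzd4, the receptor of vascular Norrin signalling, had 31.0, 41.3 and 22.2 in E12.5 WT, 15.9, 0 and 17.1 in E12.5 KO, 0, 38.2 and 24.3 in E15.5 WT and 49.5, 31.3 and 30.1 in E15.5 KO. Its intervals also reach Tmem135.

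The antagonists ranged from a dense mark at Sfrp5 and Dkk1 (61.0 and 56.9 normalised counts per kilobase) to almost none at Sfrp4 and Dkk3. Dkk1, which blocks LRP co-receptors, had the largest mean normalised count of this role, at 829, 1042 and 983 in E12.5 WT, 418, 626 and 646 in E12.5 KO, 384, 384 and 484 in E15.5 WT, and 451, 503 and 563 in E15.5 KO. The E12.5 WT libraries were the highest 3 of the 12. Sfrp1 and Sfrp2, both of which bind Wnt ligands, were marked in every library but the shallowest. Sfrp1 had 59.8, 100.1 and 74.1 in E12.5 WT, 60, 31.5 and 90.8 in E12.5 KO, 38.2 and 53.7 in the marked E15.5 WT libraries, and 43.7, 77.1 and 49.6 in E15.5 KO. Sfrp2 had 62.0, 91.9 and 82.7 in E12.5 WT, 38.0, 45.8 and 38.5 in E12.5 KO, 38.2 and 32.9 in the marked E15.5 WT libraries, and 65.5, 24.1 and 18 in E15.5 KO. At E12.5 the genotypes overlapped for Sfrp1 and not for Sfrp2, whose change did not pass the test (log2 -0.97 ± 0.37, SE; edgeR adjusted p = 0.132). Dkk3, a divergent Dickkopf relative, was marked in 5 libraries, of which 3 were E12.5 WT, and Sfrp4 in 2.

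Of the R-spondins, Rspo1 carried the densest mark, with 89.2 normalised counts per kilobase against 16.0 to 32.1 for Rspo2, Rspo3 and Rspo4. Rspo1 had 1549, 1827 and 1584 in E12.5 WT, 863, 1136 and 1402 in E12.5 KO, 1512, 1479 and 1609 in E15.5 WT, and 1468, 1638 and 1443 in E15.5 KO. Its E12.5 KO libraries were the lowest 3 of the 12, though the E12.5 change did not pass the test (log2 -0.54 ± 0.29, SE; edgeR adjusted p = 0.200). Lef1, which encodes a transcription factor that binds beta-catenin, had 93.7 per kilobase, against 21.5 for Tcf7, its relative, and 10.8 for Axin2, the lowest of the members marked in all libraries.

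At E12.5, the mark at 3 of 39 members tested was lower in KO than in WT and none was higher, by edgeR's quasi-likelihood test with Benjamini-Hochberg adjustment over all genes. The 3 were the receptor Fzd7, the feedback inhibitor Axin2 and the ligand Wnt9a. Over all genes tested 4.04% were called lower (127 of 3140) and none higher, while 905 genes and 15 members had an unadjusted p below 0.05. The median log2 change was -0.62 for members and -0.57 for all genes. By role, the medians were -0.38 for ligands, -0.96 for receptors, -0.76 for antagonists, -0.56 for R-spondins and -0.93 for Axin2, Lef1 and Tcf7. With TMM factors, which centre the genes on no change and moved the median of all genes by 0.53 to -0.05, 38 genes were called lower (1.21%) and 9 higher, and Fzd7 was the 1 member called. DESeq2 with its own size factors, which brought that median to 0.02, called 73 genes higher and 98 lower, and it called Wnt7a higher (log2 0.79, DESeq2 adjusted p = 0.0153) beside Fzd7, Axin2 and Wnt9a lower. TMM factors on the merged footprint gave 99 genes higher and 103 lower, with Fzd7 and Axin2 lower. With 3 libraries a group, a p that misses the threshold does not show that the genotypes were alike.

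Fzd7, a Frizzled of stem and progenitor cells, had the smallest adjusted p. Its normalised counts were 1799, 2372 and 2203 in E12.5 WT and 411, 521 and 455 in E12.5 KO. All 3 KO libraries lay far below all 3 WT libraries. WT replicate 1 was shallower than each KO library, while WT replicates 2 and 3 were the deepest of the series. The part of depth was not tested. The change was -2.20 ± 0.29 (log2, SE; edgeR adjusted p = 0.000491), and the group values were 2125 ± 295 and 463 ± 55.1 (SD, n = 3). With TMM factors it was -1.63 (edgeR adjusted p = 0.0153).

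The genotypes differed at Fzd7 in the extent of the intervals. In E12.5 WT a single interval of 30.4, 45 and 45.6 kb ran over the gene, within a domain at chr1:59463401-59514000 that holds no other protein-coding gene. In E12.5 KO the intervals were 17.4 kb in replicate 1, 8.6 and 5.0 kb in replicate 2 and 8.4 kb in replicate 3, and all 3 libraries kept an interval over the start site shown above. Inside the interval over the start, the normalised count per kilobase was 59.2, 52.7 and 48.3 in WT and 23.6, 52.9 and 54.2 in KO, so the groups overlapped in density. When only the part of each count that falls to the gene and 2500 bp on either side was used, the change was -0.46 and did not pass the test (edgeR adjusted p = 0.390). The median of all genes was -0.50 with counts taken this way.

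**Figure D2:**
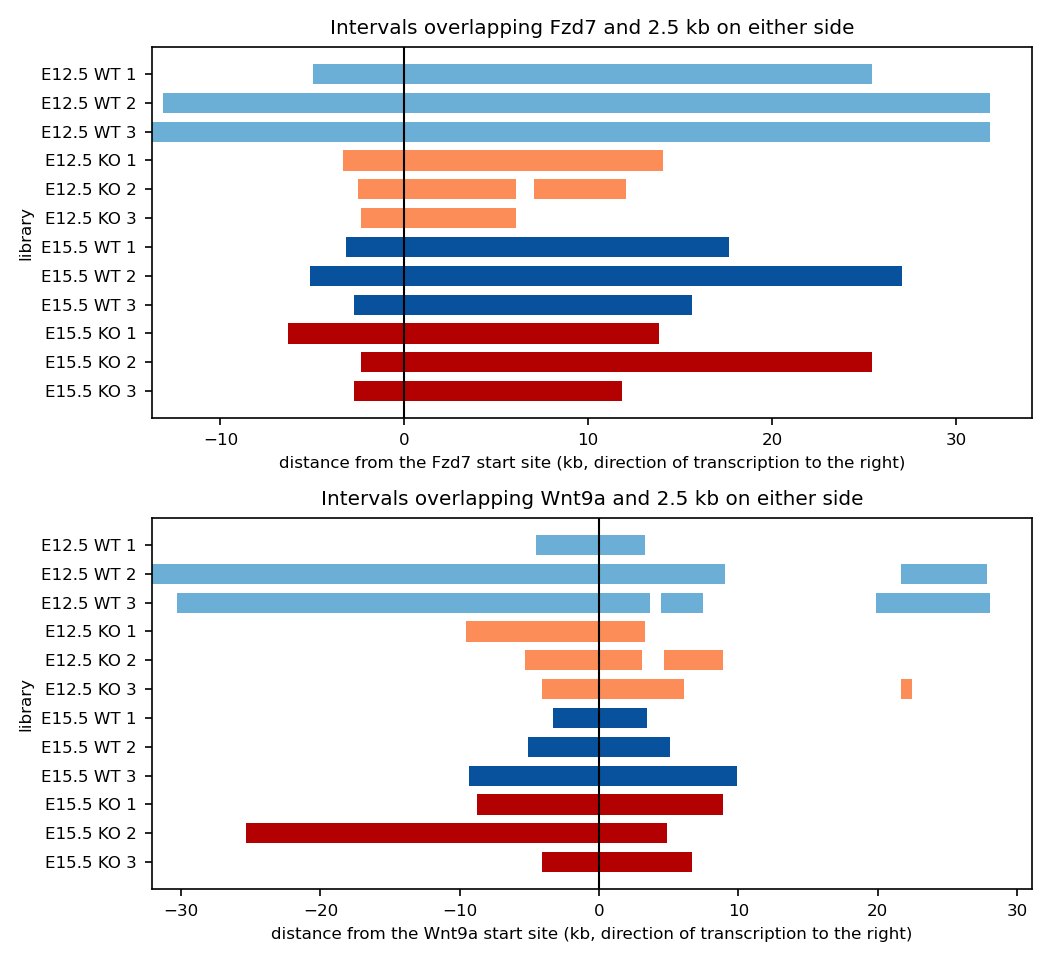
Extent of the intervals overlapping Fzd7 (top) and Wnt9a (bottom) with 2500 bp on either side, in kb from the start site, with transcription running to the right and 1 row per library. At Fzd7 the E12.5 WT bars are 30.4 to 45.6 kb long and the E12.5 KO bars at most 17.4 kb, and at Wnt9a the bars of E12.5 WT replicates 2 and 3 and of E15.5 KO replicate 2 run leftwards into the neighbouring Wnt3a domain.

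Axin2 had normalised counts of 144, 217 and 216 in E12.5 WT and 51.4, 46.8 and 95.1 in E12.5 KO, with no overlap. The change was -1.59 ± 0.41 (log2, SE; edgeR adjusted p = 0.0389). With TMM factors it was -1.08 and did not pass (edgeR adjusted p = 0.0610), nor did it without E12.5 WT replicate 2 or 3 or E12.5 KO replicate 1 or 2 (edgeR adjusted p from 0.0614 to 0.260). Most of the Axin2 mark lay inside the gene, downstream of the CpG-rich promoter shown above: in E12.5 WT the main interval began 1.45 kb past the start in replicate 1 and just before it in replicates 2 and 3, and ended 11.7, 13.7 and 13.1 kb past it. No KO library at either stage had an interval over the start. The same held for E12.5 WT replicate 1 and E15.5 WT replicates 1 and 2. In E12.5 KO replicate 1 and E15.5 KO replicate 1 the interval began 0.052 kb past the start, a gap shorter than the 200 bp window. E12.5 WT replicates 2 and 3, where the start was covered, were the deepest libraries. A difference between genotypes in coverage of the start was not tested.

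Wnt9a counts turned on how an interval was joined. Normalised counts were 594, 2786 and 2504 in E12.5 WT and 353, 419.9 and 545 in E12.5 KO, a change of -2.16 ± 0.45 (log2, SE; edgeR adjusted p = 0.0138). In the higher 2 WT libraries, the deepest of the series, the Wnt9a interval was fused with that of Wnt3a, a canonical ligand next to it. When all intervals in the shared footprint were summed, WT had 2233, 2786 and 2513 and KO had 1295, 1748 and 2317, which overlap, and the change was -0.49 (edgeR adjusted p = 0.160). The call at Wnt9a thus ended on the footprint, while those at Fzd7 and Axin2 held there (-1.96 and -1.59), where 4.74% of all genes were called lower.

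Every E12.5 KO library lay below every E12.5 WT library at 18 of the 39 members, against 33.0% of all genes tested. They were 5 ligands (Wnt4, Wnt5a, Wnt6, Wnt9a and Wnt11), 4 receptors (Fzd6, Fzd7, Fzd9 and Fzd10), 4 antagonists (Sfrp2, Sfrp5, Dkk1 and Wif1), Rspo1, Rspo3, Axin2, Lef1 and Tcf7. On the merged footprint Wnt6 and Wnt9a overlapped. No member had every KO library above every WT library, which 0.35% of all genes had. Without centring on the median of all genes, the log2 change lay below 0 at 35 of 39 members and at 2877 of 3140 genes, and the 4 members above 0 were Fzd2 (0.36), Wnt7a (0.19), Fzd1 (0.09) and Wnt7b (0.02).

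Further members, singled out after their values were seen, lay below WT in all KO libraries without passing the test. Fzd6, a receptor of planar cell polarity, had 64.3, 90.8 and 76.2 in WT and 19.6, 23.9 and 50.2 in KO (log2 -1.31 ± 0.42, SE; edgeR adjusted p = 0.0878, and from 0.0184 to 0.318 over 15 alternative settings, of which it passed 6). Wif1, which binds Wnt ligands, had 55.4, 122 and 91.4 in WT and 45.3, 16.2 and 52.3 in KO (log2 -1.28 ± 0.47, SE; edgeR adjusted p = 0.120). In both, the KO library nearest to WT was replicate 3. Tcf7 had 215, 351 and 289 in WT and 99.2, 154 and 198 in KO (log2 -0.93 ± 0.37, SE; edgeR adjusted p = 0.138). Wnt4, a ligand of kidney and gonad development, had 649, 776 and 692 in WT and 342, 385 and 523 in KO (log2 -0.76 ± 0.31, SE; edgeR adjusted p = 0.144). Its KO values again came nearest to WT in replicate 3. None of the other Wnt pathway genes from a separate list of 54, of which 16 could be tested here, passed the threshold.

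**Figure D3:**
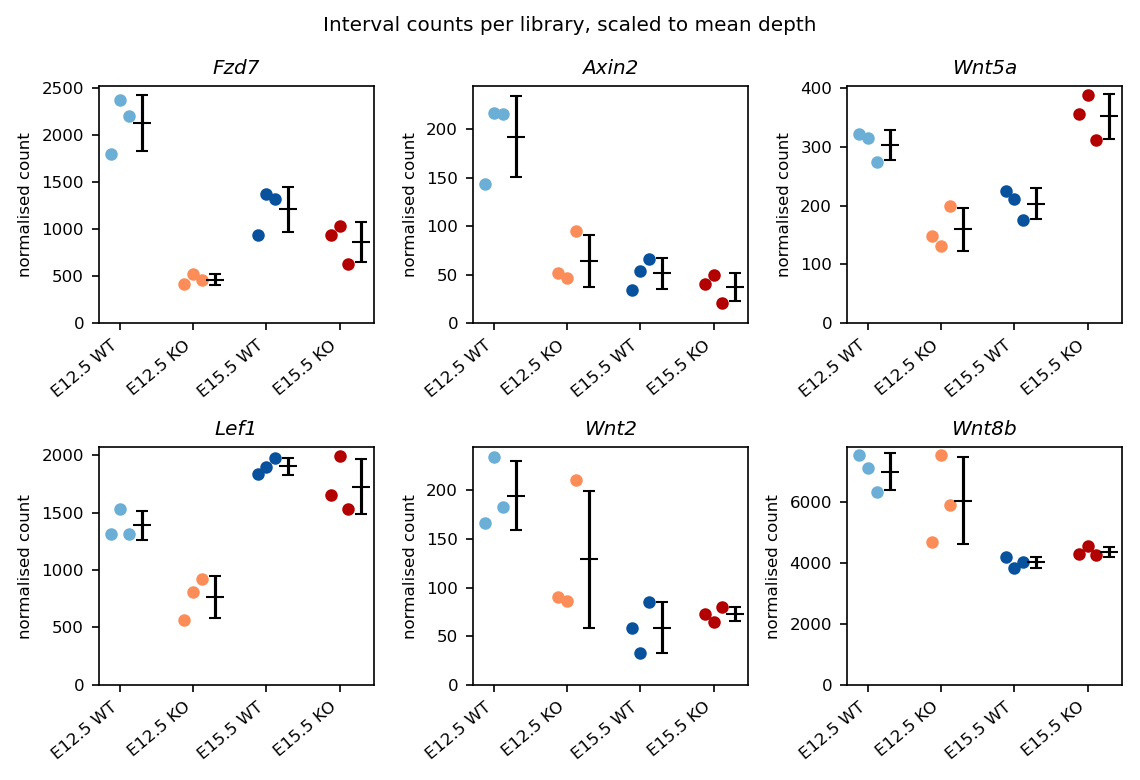
Normalised count in each library (points) with the group mean and SD (bars, n = 3) for Fzd7, Axin2, Wnt5a, Lef1, Wnt2 and Wnt8b, on linear axes from 0. Fzd7 and Axin2 are highest in the 3 E12.5 WT libraries, and Wnt5a is lower in KO at E12.5 and higher in KO at E15.5.

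At E15.5, none of 35 members tested passed the threshold in edgeR, and 4 members and 303 genes had an unadjusted p below 0.05. Over all genes 0.482% were called (13 of 2695), of which 11 were higher in KO (0.408%) and 2 lower (0.0742%). DESeq2 called 1 member, Wnt5a. The median log2 change was 0.14 for members and -0.01 for all genes. By role it was 0.26 for ligands, 0.01 for receptors, -0.02 for antagonists, 0.16 for R-spondins and -0.14 for Axin2, Lef1 and Tcf7. Ligands that share a domain are each counted in their median. Fzd7 had 937, 1376 and 1319 in WT and 933, 1028 and 629 in KO, which overlapped at 1 point (log2 -0.49 ± 0.22, SE; edgeR adjusted p = 0.466). Axin2 had 34.6, 54.2 and 65.9 in WT and 40.7, 49.4 and 21.1 in KO, and the genotypes overlapped. All 12 values of Axin2 put E12.5 WT above every other library.

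Every E15.5 KO library lay above every E15.5 WT library at 6 of 35 members, against 11.1% of all genes tested. They were the ligands Wnt3, Wnt5a, Wnt7b, Wnt8b and Wnt9b, and Rspo2. Of these, Wnt3 and Wnt9b share a domain and are not independent. On the merged footprint Wnt8b overlapped. The reverse held for 1 member, Dkk2, against 8.09% of all genes. Wnt5a, the main ligand of the beta-catenin-independent branch, had 225, 211 and 175 in WT and 357, 388 and 311 in KO, and is described here although it falls outside the rule for full values, having been chosen after its values were seen. Its change of 0.79 ± 0.15 (log2, SE) did not pass (edgeR adjusted p = 0.116). On the merged footprint, where 1.72% of all genes were called higher, it was 0.80 and passed (edgeR adjusted p = 0.0151). The log2 changes of the other 4 ligands and of Rspo2 were smaller, from 0.12 (Wnt8b) to 0.37 (Wnt7b). Wnt3, a canonical ligand, had 1477, 1501 and 1639.8 in WT and 1769.6, 1992 and 1875 in KO (log2 0.29 ± 0.10, SE; edgeR adjusted p = 0.379), and its neighbour Wnt9b had 1522, 1641 and 1742 in WT and 1821, 2117 and 1946 in KO. Rspo2 had 62.3, 58.3 and 60.7 in WT and 82.9, 66.2 and 79.7 in KO. Over all 35 members the change lay above 0 at 23, against 1294 of 2695 genes. The 23 are not independent, since neighbouring ligands that share a domain are each counted. All of Wnt1 and Wnt10b, Wnt6 and Wnt10a, Wnt3 and Wnt9b, and Wnt3a and Wnt9a lay above 0 in the main fit. With all pieces of their domain summed, Wnt1 and Wnt10b had 9831, 8961 and 9141 in WT. KO then had 8266, 10131 and 7872, and the genotypes overlapped. Over the alternative settings the change ran from -0.13 to 0.63 at Wnt1 and from -0.16 to 1.23 at Wnt10b. Wnt7b, a ligand made in cortex, had 993, 1007 and 1026 in WT and 1205, 1446 and 1253 in KO (log2 0.37 ± 0.11, SE; edgeR adjusted p = 0.282).

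**Figure D4:**
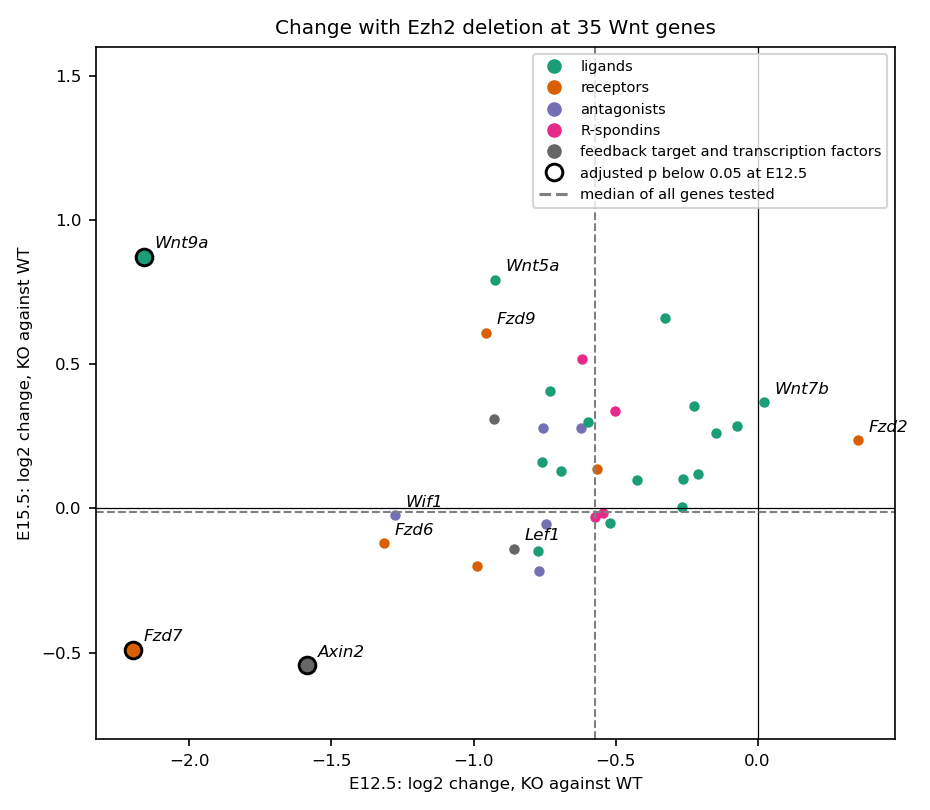
Log2 change of KO against WT at E12.5 (horizontal) and E15.5 (vertical) for the 35 genes marked in all 12 libraries, coloured by role, with rings for an adjusted p below 0.05 at E12.5 and dashed lines at the median of all genes tested. Fzd7, Axin2 and Wnt9a lie farthest left, and at E15.5 the values run from -0.54 to 0.87.

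Whether the KO change differed between stages was tested as an interaction over all 12 libraries. These are the same libraries as in the comparisons within each stage. The dissection also differed between stages, so a KO change that differs by stage and one that differs by dissection cannot be told apart. The interaction passed for 2 of 35 members, Fzd7 and Wnt5a, against 0.562% of all genes (14 of 2492). At both, the log2 change of KO against WT was higher at E15.5 than at E12.5. The difference was 1.71 ± 0.32 for Fzd7 and 1.72 ± 0.32 for Wnt5a (log2, SE; edgeR adjusted p = 0.0248 for both). The 2 genes reached it differently. Fzd7 was 2.20 lower in KO at E12.5 and 0.49 lower at E15.5 on the log2 scale. For Wnt5a, E12.5 counts were 321, 315 and 274 in WT and 148, 131 and 199.8 in KO (log2 -0.93 ± 0.34, SE; edgeR adjusted p = 0.120), so its KO libraries lay below WT at E12.5 and above WT at E15.5. The median difference over all genes was 0.61. With TMM factors, which brought that median to 0.02, neither gene passed, and 0.241% of all genes did (Fzd7 1.08, edgeR adjusted p = 0.102; Wnt5a 1.13, edgeR adjusted p = 0.0902). With counts apportioned to the window, the difference at Fzd7 was 0.11 and did not pass (edgeR adjusted p = 0.880), while Wnt5a passed at 1.50 (edgeR adjusted p = 0.0433). The median over all genes was 0.50 with those counts. Without E12.5 KO replicate 3, 23 members and 957 genes passed, and neither gene passed when any of 9 of the other libraries was left out singly, among them E12.5 WT replicates 2 and 3 and E12.5 KO replicates 1 and 2.

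Over both stages, with stage in the fit, 1 of 35 members was called, Fzd7, which was lower in KO (log2 -1.35 ± 0.29, SE; edgeR adjusted p = 0.0425), against 0.963% of all genes called, 0.923% lower and 0.0401% higher. It passed in 9 of 21 alternative settings. Axin2 was at -1.11 ± 0.31 (log2, SE; edgeR adjusted p = 0.106). The direction of the calls turned with the scaling: with TMM factors, 53 genes were higher (2.13%) and 49 lower (1.97%), and the members called were Wnt3 and Wnt9b, higher, and Fzd7 and Axin2, lower. DESeq2 called 104 genes higher and 113 lower, and the same 4 members with Wnt7b, also higher.

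Between stages, 11 of 35 members changed over both genotypes: Lef1 was higher at E15.5 and 10 members were lower, against 25.5% of all genes called (92 higher, 3.69%, and 544 lower, 21.8%). The share of members called is near that background. By role, 7 of 17 ligands (Wnt8b, Wnt10a, Wnt6, Wnt2, Wnt9b, Wnt3 and Wnt3a), 0 of 6 receptors, 1 of 5 antagonists (Dkk1), 1 of 4 R-spondins (Rspo2) and Axin2 were lower. Among these ligands Wnt6 and Wnt10a share a domain, as do Wnt3 and Wnt9b. The median log2 change was -0.28 for members, -0.35 for ligands, 0.00 for receptors and -0.08 for antagonists. It was -0.42 for R-spondins, -0.68 for Axin2, Lef1 and Tcf7, and -0.29 for all genes. With TMM factors, which moved that last median to -0.01, 491 genes were higher (19.7%) and 502 lower (20.1%), and the members called were 6 higher (Lef1, Fzd5, Wnt2b, Rspo1, Wnt5a and Sfrp5) and 8 lower (Wnt2, Axin2, Tcf7, Wnt3a, Wnt9b, Rspo2, Dkk1 and Wnt8b). Lef1, Wnt2, Axin2 and Wnt8b passed in each of 21 alternative settings. The dissection differed between stages, so stage and dissection cannot be told apart.

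Lef1 had normalised counts of 1314, 1534 and 1317 in E12.5 WT and 567, 811 and 921 in E12.5 KO, and of 1833, 1901 and 1976 in E15.5 WT and 1653, 1997 and 1533 in E15.5 KO. The E12.5 KO libraries were lowest and the E15.5 libraries high, with E12.5 WT replicate 2 just above the lowest of them. The stage change was 0.81 ± 0.17 (log2, SE; edgeR adjusted p = 0.00470). Within E12.5 the KO change was -0.86 ± 0.30 (log2, SE; edgeR adjusted p = 0.110), and within E15.5 -0.14 ± 0.12 (log2, SE; edgeR adjusted p = 0.693).

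Wnt8b, a ligand of the dorsal midline and hippocampal primordium, had 7547, 7111 and 6348 in E12.5 WT, 4696, 7540.1 and 5917 in E12.5 KO, 4206, 3843 and 4022 in E15.5 WT and 4305, 4557 and 4253 in E15.5 KO. All 6 E15.5 libraries lay below all 6 E12.5 libraries. It fell by 0.63 ± 0.12 (log2, SE; edgeR adjusted p = 0.00333). Its intervals also reach Sec31b. Wnt2, a canonical ligand, was the other member whose stages did not overlap, at 166, 234 and 183 in E12.5 WT, 90.6, 85.9 and 210.5 in E12.5 KO, 58.8, 32.1 and 84.9 in E15.5 WT and 72.8, 65.0 and 79.7 in E15.5 KO. It fell by 1.26 ± 0.30 (log2, SE; edgeR adjusted p = 0.00955). Such a separation was seen in 6.9% of all genes in this direction and in 1.2% in the other.

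Wnt6 and Wnt10a, adjacent ligands in 1 domain on chromosome 1, moved as a single unit. Wnt10a had 10261, 9195 and 8733 in E12.5 WT, 6195, 8771 and 8541 in E12.5 KO, 5016, 6064 and 6201 in E15.5 WT and 5831, 7048 and 5658 in E15.5 KO. Wnt6 had 10261, 9268 and 8792 in E12.5 WT, 6195, 8779 and 8576 in E12.5 KO, 6206, 6088 and 6201 in E15.5 WT and 5831, 7048 and 5677 in E15.5 KO. For both, E12.5 KO replicate 1 fell among the E15.5 libraries. Stage changes were -0.52 ± 0.12 for Wnt10a (log2, SE; edgeR adjusted p = 0.00867) and -0.48 ± 0.11 for Wnt6 (log2, SE; edgeR adjusted p = 0.00894), and with TMM factors neither passed (edgeR adjusted p = 0.117 and 0.196).

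Axin2 fell by 1.35 ± 0.31 between stages (log2, SE; edgeR adjusted p = 0.00730), and the 3 E12.5 WT libraries and E12.5 KO replicate 3 lay above all E15.5 libraries. The 5 remaining members that fell were Rspo2, Dkk1, Wnt3a, Wnt9b and Wnt3, with log2 changes from -0.85 to -0.49 and edgeR adjusted p from 0.0173 to 0.0499. Of 21 alternative settings, Rspo2 passed in 18, Wnt9b in 17, Dkk1 and Wnt3 in 14 each and Wnt3a in 11. Rspo2 had 115, 168 and 157 in E12.5 WT and 88.2, 82.1 and 142 in E12.5 KO, and its E15.5 KO replicate 1, at 82.9, exceeded the lowest of these. Wnt3a had 1668, 2898 and 2543 in E12.5 WT and 1012, 1367 and 1904 in E12.5 KO, against 792, 1009 and 1078 in E15.5 WT and 1036, 1791 and 996 in E15.5 KO. The stages thus overlapped at both genes. In E12.5 WT replicates 2 and 3 and E15.5 KO replicate 2 the Wnt3a interval was fused with that of Wnt9a. The Wnt3a change ran from -0.94 to -0.23 over the alternative settings. Tcf7 had 104, 119 and 121 in E15.5 WT and 170.3, 143 and 117 in E15.5 KO, and its stage change did not pass (log2 -0.68 ± 0.27, SE; edgeR adjusted p = 0.0729), although it did with TMM factors (-0.38, edgeR adjusted p = 0.0382). Wnt3 with TMM factors was at -0.21 and did not pass. Among the 13 of 54 other Wnt pathway genes that could be tested, Wls, which escorts Wnt ligands out of the cell, was lower at E15.5 (log2 -1.59 ± 0.22, SE; edgeR adjusted p = 0.000241). Lgr6, an R-spondin receptor, was also lower (log2 -0.70 ± 0.22, SE; edgeR adjusted p = 0.0301). Lgr5, its relative, was higher (log2 1.08 ± 0.29, SE; edgeR adjusted p = 0.0161). No interval was found in any library at 18 of these 54 genes.

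**Figure D5:**
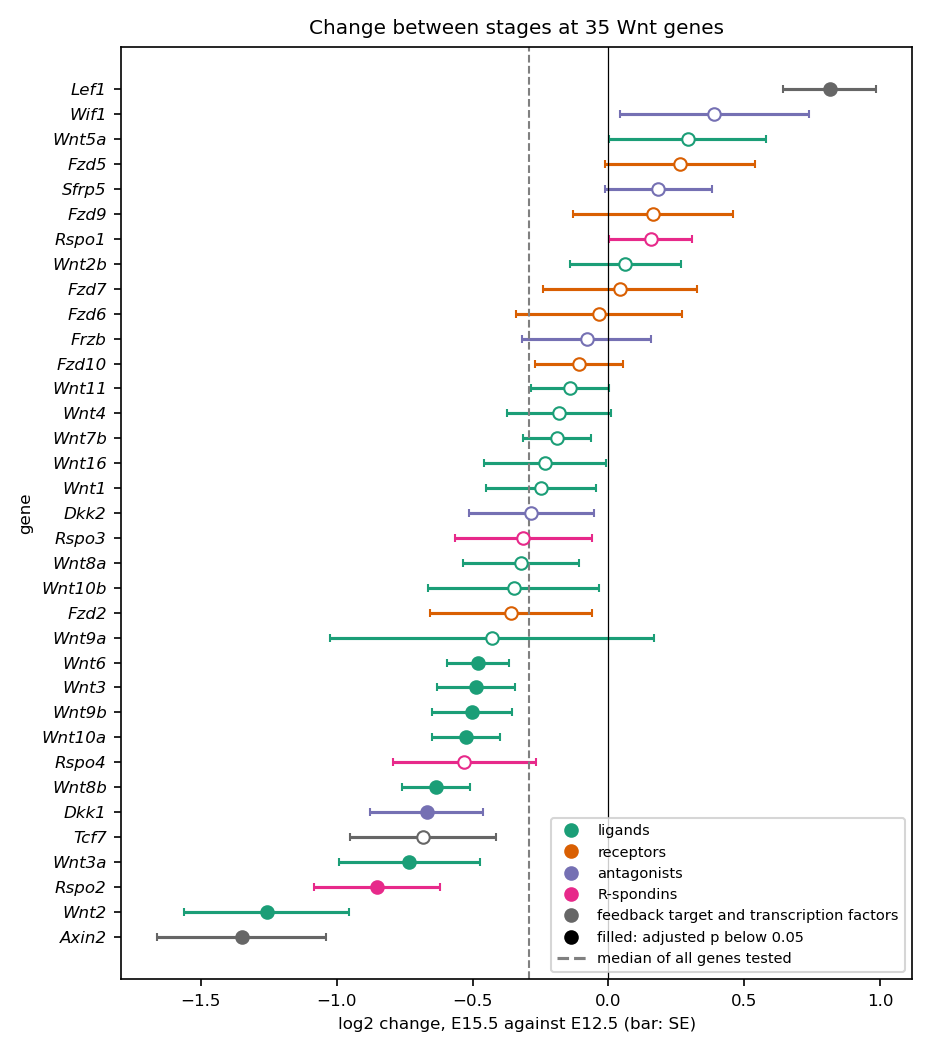
Log2 change of E15.5 against E12.5 over both genotypes for the 35 genes marked in all 12 libraries, with SE bars, coloured by role and filled where the adjusted p is below 0.05; the dashed line is the median of all genes tested. Lef1 is highest at 0.81, Axin2 lowest at -1.35, and the 6 receptors are open symbols between -0.36 and 0.26.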

How the data were processed

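H3K27me3 CUT&Tag was analysed in 12 libraries of mouse MGE (WT and KO, E12.5 and E15.5, 3 per group). Per the submitters' processing notes, the tools were cutadapt, Bowtie2, SAMtools, Picard, deepTools and SICER, on GRCm38 (mm10); versions, parameters and the calling threshold are not given in the sources used here. The authors deposited 1 list of intervals per library, with a raw count and a score for each interval. Depth was recovered from the deposited score of single-window intervals below 1000, where the score is minus the natural logarithm of a count's Poisson probability; that depth is proportional to reads is an assumption. Counts of all intervals overlapping a gene with 2500 bp on either side were summed per gene (RefSeq gene table, GRCm38.p6).

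Autosomal protein-coding genes with an interval in every library compared were tested with edgeR 4.0.16 (quasi-likelihood test, library sizes proportional to depth, Benjamini-Hochberg adjustment over all genes, threshold 0.05) in R 4.3.3, in 5 comparisons. A gene without an interval has no count, so losses of whole intervals are outside the test. The fit was tested on simulated data. Alternatives were TMM factors, DESeq2 1.42.0, intervals in at least 4 of 6 or 8 of 12 libraries, a mean count of at least 50, no flank, counts apportioned to the window, the merged footprint of the 12 libraries, a replicate block, each library left out, and, chosen after seeing the data, TMM factors on the merged footprint.

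Full values are given for up to 8 called members by smallest adjusted p, the member with the largest mean in each role, and up to 6 members marked in some libraries. Members and lists were chosen with earlier results of these data known. Promoters are RefSeq's. Other software was Python 3.11.15, numpy 2.4.6, pandas 2.3.3, scipy 1.17.1 and matplotlib 3.10.9.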

Additional observations from a re-analysis of the deposited data

Results flagged for a closer look

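The change of KO against WT differed between E12.5 and E15.5 at 2 members by the test of the interaction itself. The difference was 1.71 ± 0.32 at Fzd7 and 1.72 ± 0.32 at Wnt5a (log2, SE; edgeR adjusted p = 0.0248 for both). Over the alternatives it ranged from 0.11 (counts apportioned to the window) to 1.89 at Fzd7, which passed in 10 of 21, and from 1.11 to 1.91 at Wnt5a, which passed in 11 of 21. At Fzd7 the E12.5 WT libraries (1799, 2372 and 2203 normalised counts) stood above the other 9, and at Wnt5a the E12.5 KO libraries (148, 131 and 199.8) all lay below the E15.5 KO libraries (357, 388 and 311). E12.5 WT replicates 2 and 3 were the deepest libraries, and the part of depth in these differences was not tested. Stage and dissection cannot be told apart in these differences.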

How the results depend on the processing

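Genes called at E12.5 numbered 127, and 47 with TMM factors, 6 with intervals in at least 4 of 6 libraries, 229 with apportioned counts, 305 with the replicate block and 202 with TMM factors on the merged footprint. At E15.5 they numbered 13, and 72 with DESeq2, 1 with at least 4 of 6 libraries, 68 on the merged footprint, 0 with the replicate block and 94 with TMM factors on the footprint. Over both stages 24 were called, and 102 with TMM factors, 217 with DESeq2, 0 with at least 8 of 12 libraries, 48 with apportioned counts, 135 on the footprint, 4 with the replicate block and 168 with TMM factors on the footprint. Between stages 636 were called, and 993 with TMM factors, 1140 with DESeq2 and 1235 with TMM factors on the footprint. The interaction gave 14, and 6 with TMM factors, 43 with DESeq2, 29 with apportioned counts, 106 on the footprint, 25 with the replicate block and 42 with TMM factors on the footprint.

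Members called at E12.5 numbered 3 of 39, against 4.04% of all genes. There was 1 with TMM factors (1.5% of genes) and 1 with at least 4 of 6 libraries (6 of 4495 genes). At E15.5 they numbered 0 of 35, against 0.482% of all genes. There was 1 (Wnt5a) with DESeq2 (72 of 2695 genes) and on the footprint (2.25% of genes). With TMM factors on the footprint there were 2 (Wnt5a and Wnt7b), against 3.12% of genes. Over both stages 1 of 35 was called, against 0.963% of all genes. With TMM factors 4 were called (2 of them higher, 4.09% of genes), and with DESeq2 5 (3 higher, 217 of 2492 genes). There were 3 on the footprint (4.78% of genes) and 5 with TMM factors on the footprint (5.95% of genes). With at least 8 of 12 libraries, apportioned counts or the replicate block there were 0. Between stages 11 of 35 (25.5% of all genes) became 17 with TMM factors on the footprint, where 43.8% of all genes were called. For the interaction 2 of 35 (0.562% of genes) became 0 with TMM factors (0.241% of genes) and 1 (Wnt5a) with apportioned counts. Wnt9a at E12.5 turned from -2.16 to 0.015 with TMM factors on the footprint (edgeR adjusted p = 0.974). The causes were not tested.

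With each library left out, genes called ranged from 11 to 902 at E12.5, 0 to 13 at E15.5, 0 to 40 over both stages, 374 to 992 between stages and 0 to 957 for the interaction, and members from 1 to 15, 0 to 1, 0 to 1, 6 to 14 and 0 to 23. E12.5 KO replicate 3 decided most: without it 15 members were called at E12.5 and 23 for the interaction. The rise ran over all genes, with 902 of 3144 called at E12.5 and 957 of 2492 for the interaction. Without E12.5 KO replicate 1 only Fzd7 was called at E12.5, among 11 of 3406 genes. Between stages, 6 members were called without E12.5 KO replicate 3, E15.5 WT replicate 2 or E15.5 WT replicate 3, beside 374, 388 and 441 genes in that order. Members marked in every library ranged from 35 to 38.

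Same-numbered WT and KO libraries did not deviate together throughout (r across 2492 genes 0.23, 0.02 and 0.17 at E12.5 and -0.22, -0.20 and -0.35 at E15.5), so the number is not taken as a pairing and the replicate block only names it. Depth limits the shallowest library most, E15.5 WT replicate 1, where a missing interval does not show that the mark was absent.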
